A study of Mus musculus with 24 samples.

Results

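RNA-Seq of whole mouse liver was examined for 10 genes of the NRF2 antioxidant response: Nfe2l2, Nqo1, Gclc, Gclm, Hmox1, Txnrd1, Srxn1, Gsr, Osgin1 and Slc7a11. They were taken by symbol from a table of counts for 56205 genes, and each symbol was matched to 1 row. All 10 were among the 17913 genes tested, those with a count in 12 or more of the 24 libraries. The livers came from C57BL/6J mice of both sexes kept for 20 weeks on a high-fat diet (12 libraries) or on a control chow diet (12 libraries), with 6 mice per diet and sex. Per the study's methods the high-fat diet was rich in palm oil, fructose and cholesterol, and the mice were young adults when it began. Neither the labels nor the methods name an allele or agent other than the diet for these mice. RNA was extracted from whole liver with Trizol and poly(A)-selected, so a level is an average over all cell types of the organ, in which fewer cells of a type and less RNA per cell cannot be told apart.

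NRF2, the protein of Nfe2l2, is a basic leucine zipper transcription factor that is held at low abundance by KEAP1, an adaptor of a CUL3 ubiquitin ligase. Electrophiles and oxidants modify KEAP1, NRF2 accumulates, pairs with a small MAF protein and binds antioxidant response elements near genes for glutathione synthesis, thioredoxin recycling, quinone reduction and heme breakdown. In liver this program protects hepatocytes from drugs and lipid peroxides, and some of its genes, Hmox1 above all, are also strongly used by macrophages.

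The libraries held 16490817 to 21213070 counts on genes in high-fat livers, and 14468418 to 22112552 in control livers. Levels are given as CPM, counts per 1e6 counts of the library after edgeR's TMM scaling, whose factors were 0.994 to 1.34 in high-fat and 0.679 to 1.01 in control livers. The labels give no sex for a library, but Xist, the RNA that coats an inactive X chromosome, had 2664 to 6285 counts in replicates 1 to 6 of both diets and 0 to 3 counts in replicates 7 to 12. Values are therefore also given within these sets of 6 libraries per diet. The sets are defined from the data rather than from labels, and in number they match the 6 mice per diet and sex. High-fat diet replicates 3 and 9 stood apart in their markers. In replicate 3 the summed neutrophil markers (S100a8, S100a9, Ly6g and Csf3r) reached 157 CPM, against 6.02 to 13.8 in the other 11 libraries of the diet. Its summed markers of monocyte-derived macrophages, stellate cells and cholangiocytes were the lowest of the 12, and those of hepatocytes and sinusoidal endothelium the highest. The sums of monocyte-derived macrophages, stellate cells, cholangiocytes and hepatocytes lay within the range of the control libraries. Those of neutrophils, resident macrophages and sinusoidal endothelium lay above it. Replicate 9 had the highest scaling factor of the diet, the highest summed markers of monocyte-derived macrophages, stellate cells and cholangiocytes, and the lowest of hepatocytes, resident macrophages and sinusoidal endothelium. Control replicate 10 had the lowest depth and scaling factor, and control replicate 11 the highest stellate cell markers of its diet, at 203 CPM against 40.1 to 120 in the other control libraries.

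RefSeq promoter windows of GRCm38.p6, from 250 bases before to 50 bases after a gene start, were at hand for 7 of the 10 genes, with 3 windows for Txnrd1 and 9 in all. They were searched on both strands for TGACNNNGC, 1 form of the core of the antioxidant response element (GCNNNGTCA on the opposite strand). The windows of the 3 genes that were called higher and have one, Nqo1, Srxn1 and Slc7a11, are shown with those of Nfe2l2 and Gclm, which hold a match and were not called. Capitals mark the match, and a window without capitals holds none.
Nfe2l2 (chr2:75704614-75704913, minus strand): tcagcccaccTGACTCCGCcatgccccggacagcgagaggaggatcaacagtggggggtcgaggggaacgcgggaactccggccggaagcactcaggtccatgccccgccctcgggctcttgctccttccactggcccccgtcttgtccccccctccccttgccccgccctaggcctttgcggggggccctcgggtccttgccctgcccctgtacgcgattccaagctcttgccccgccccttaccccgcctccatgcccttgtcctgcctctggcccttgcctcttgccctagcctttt
Nqo1 (chr8:107403156-107403455, minus strand): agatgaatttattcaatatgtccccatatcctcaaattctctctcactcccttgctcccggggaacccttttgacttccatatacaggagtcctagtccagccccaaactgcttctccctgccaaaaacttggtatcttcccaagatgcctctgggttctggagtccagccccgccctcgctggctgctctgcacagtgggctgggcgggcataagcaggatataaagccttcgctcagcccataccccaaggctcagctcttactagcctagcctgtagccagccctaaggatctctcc
Gclm (chr3:122245307-122245606, plus strand): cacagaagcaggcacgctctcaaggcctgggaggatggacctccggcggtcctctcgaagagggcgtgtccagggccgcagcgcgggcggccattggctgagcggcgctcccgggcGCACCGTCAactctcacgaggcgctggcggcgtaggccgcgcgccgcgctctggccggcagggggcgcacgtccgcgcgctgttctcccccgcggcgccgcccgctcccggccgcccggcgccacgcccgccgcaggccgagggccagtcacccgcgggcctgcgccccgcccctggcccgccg
Srxn1 (chr2:152105274-152105573, plus strand): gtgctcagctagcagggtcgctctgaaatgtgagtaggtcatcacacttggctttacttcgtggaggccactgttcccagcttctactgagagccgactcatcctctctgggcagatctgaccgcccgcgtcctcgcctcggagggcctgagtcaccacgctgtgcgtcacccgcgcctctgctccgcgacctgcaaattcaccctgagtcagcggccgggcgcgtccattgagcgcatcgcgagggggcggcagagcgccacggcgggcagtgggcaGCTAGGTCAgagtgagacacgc
Slc7a11 (chr3:50443564-50443863, minus strand): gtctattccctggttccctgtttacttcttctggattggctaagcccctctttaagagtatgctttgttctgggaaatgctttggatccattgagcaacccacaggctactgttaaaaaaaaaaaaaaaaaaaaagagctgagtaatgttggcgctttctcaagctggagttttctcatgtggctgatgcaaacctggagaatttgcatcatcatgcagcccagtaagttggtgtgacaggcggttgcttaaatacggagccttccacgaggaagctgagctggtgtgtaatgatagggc
The match in Nfe2l2 began 240 bases before the gene start on the strand of the gene, and that in Gclm lay 134 bases before it on the opposite strand. In Srxn1 it lay 29 bases after the start, also on the opposite strand. Another match lay in 1 of the Txnrd1 windows (chr10:82858956-82859255), 92 bases before that start, and the window of Osgin1 held no match to these letters. So 4 of the 9 windows, from 4 genes, held the letters, against 12.4% of all 32851 windows of the table. A match of these letters is a description of the sequence and no evidence of binding. Other forms of the element were not searched, so a window without a match says nothing of these or of elements farther away.

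Of the 10 genes, 4 were higher on the high-fat diet past the thresholds used throughout, a log2 fold change (log2FC, high-fat over control) above 0.5 with an adjusted p no larger than 0.01 (edgeR quasi-likelihood fit, Benjamini-Hochberg over all 17913 genes), where 13.2% of all genes tested were called higher. These were Hmox1, Srxn1, Nqo1 and, on few counts, Slc7a11. Slc7a11 had a count in every high-fat diet library and none in 6 control libraries, so the high-fat diet libraries carried it past the filter. Under stricter filters on low counts it was not tested, and 3 members were called higher. Of the 10 genes none was lower, where 4.99% of all genes were, and none had a log2FC below 0 at an unadjusted p under 0.05. DESeq2 and limma-voom also called 4 higher and 0 lower. The median over the 10, of which 9 were above 0, was 0.37 against -0.03 over all genes tested. Nfe2l2 passed the adjusted p but not the fold threshold, so that 5 of the 10 had an adjusted p of at most 0.01 and a fold change above 0, against 14.9% of all genes, and 0 of the 10 had one with a fold change below 0, against 10.9%. With library totals in place of TMM, 6 of the 10 were called higher, Nfe2l2 and Gclc in addition, and so were 21.4% of all genes. At TMM scaling the other 5, which include both subunits of the glutathione-synthesis ligase and both NADPH-dependent disulfide reductases, passed neither.

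**Figure D1:**
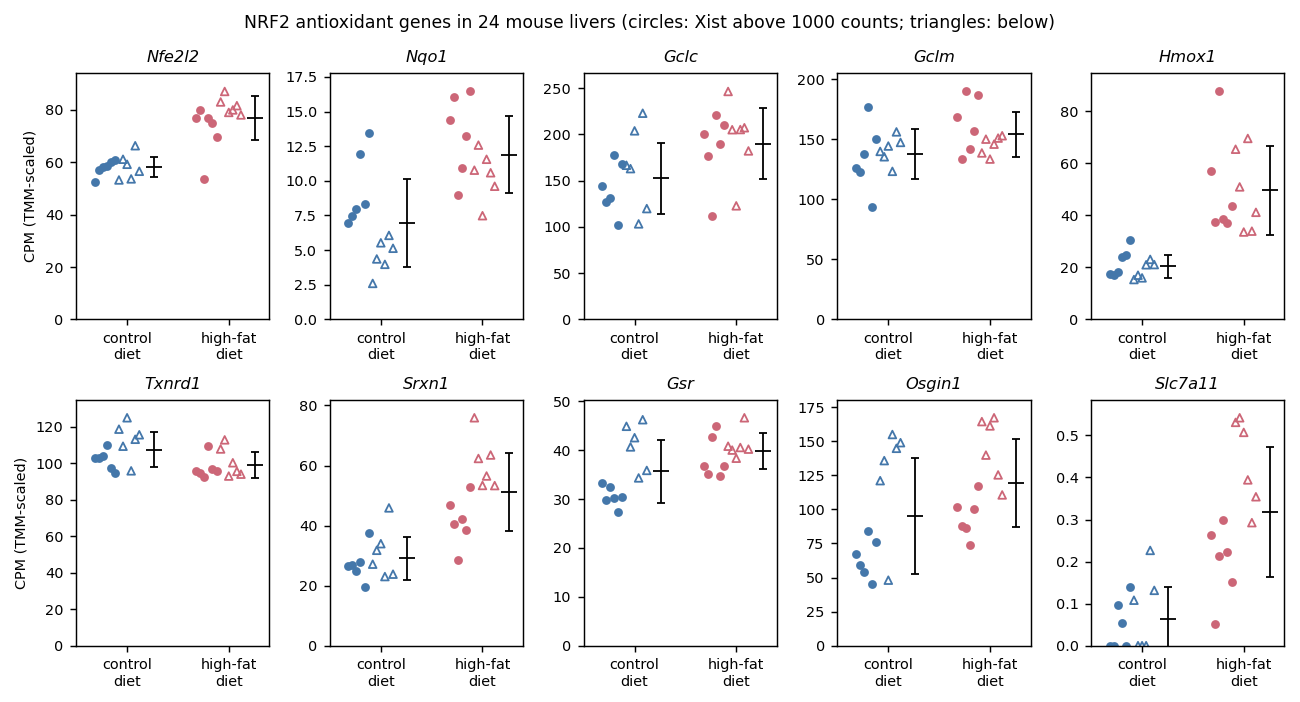
Each panel plots 1 gene in CPM (linear axis from 0) in the 12 control and 12 high-fat diet libraries, with the mean and SD at the right of each diet. Circles are libraries with Xist above 1000 counts and triangles those below, and the diets do not overlap for Hmox1, whose lowest high-fat diet value of 33.6 CPM lies above the highest control value of 30.5 CPM.

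Nfe2l2 itself (chr2:75675513-75704641, minus strand) ran from 52.6 through a median of 58.3 to 66.3 CPM in control livers, and from 53.7 through 78.6 to 87.1 CPM in high-fat livers. All but 1 of the high-fat diet libraries lay above every control library, the exception being replicate 3 at 53.7 CPM. In the fit its log2FC was 0.40 (SE 0.06, adjusted p = 3.13e-05, edgeR), a ratio of 1.32. Without replicate 3 it was 0.44. The transcript of the factor was thus above the control range in 11 of 12 libraries by an amount below the fold threshold, and its protein was not measured.

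Hmox1 (chr8:75093621-75100589, plus strand) encodes heme oxygenase, which splits heme into biliverdin, iron and carbon monoxide. Control livers had 15.3 to 30.5 CPM (median 19.5) and high-fat livers 33.6 to 87.6 CPM (median 42.3). Every high-fat diet library exceeded every control library, as was the case for 1.48% of all genes tested and for none of the other 9 members. By edgeR this was a log2FC of 1.28 (SE 0.15, adjusted p = 1.31e-06). The highest value, 87.6 CPM, was that of replicate 3, the library with the high neutrophil markers, and without it the log2FC was 1.18.

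Nqo1 (chr8:107388225-107403206, minus strand), the quinone reductase often used as a readout of NRF2, was at 2.59 to 13.5 CPM (median 6.50) in control livers and at 7.48 to 16.4 CPM (median 11.2) in high-fat livers. The diets overlapped, since only 3 high-fat diet libraries lay above the highest control library, but all 12 lay above the control median. Nqo1 was called with a log2FC of 0.76 (SE 0.20, adjusted p = 0.0037, edgeR). Osgin1 (chr8:119434124-119446256, plus strand), an oxidative stress-induced growth inhibitor, overlapped between the diets, with 3 high-fat diet libraries above every control. It ran from 45.6 to 155 CPM (median 80.1) on the control diet and from 73.6 to 167 CPM (median 114) on the high-fat diet. Its log2FC of 0.33 (SE 0.21) had an adjusted p of 0.21 by the same edgeR test.

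Glutathione is served by Slc7a11, Gclc, Gclm and Gsr. Slc7a11 (chr3:49892526-50443614, minus strand) encodes xCT, the light chain of the cystine importer that feeds the synthesis of glutathione. It was barely detected: the 12 control libraries held 14 counts in all and 6 of them none, whereas the 12 high-fat diet libraries held 80 counts, from 1 to 12 each. In CPM the control libraries ranged from 0 to 0.227 and the high-fat diet libraries from 0.0519 to 0.542, and 8 of the latter exceeded every control library. The log2FC of 2.19 (SE 0.50, adjusted p = 0.00116, edgeR) rests on these few counts, with 11 control and 2 high-fat diet libraries at 3 counts or fewer, and the gene did not pass the stricter filters on low counts. Its partner Slc3a2, the heavy chain that brings the importer to the membrane, was far more abundant and averaged 46.6 ± 4.64 CPM in high-fat livers and 42.4 ± 7.50 in control livers (SD, n = 12 each; log2FC 0.14, adjusted p = 0.209, edgeR).

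Gclc (chr9:77754535-77794485, plus strand) and Gclm (chr3:122245557-122270732, plus strand) encode the catalytic and the modifier subunit of glutamate-cysteine ligase, the rate-limiting step of glutathione synthesis. Gclc ranged from 102 to 223 CPM (median 154) in control livers and from 112 to 246 CPM (median 203) in high-fat livers. Gclm ranged from 93.6 to 177 CPM (median 139) and from 133 to 190 CPM (median 150). Both overlapped widely between the diets, with 1 and 2 high-fat diet libraries above every control library. The log2FC was 0.32 for Gclc (SE 0.14, adjusted p = 0.0655) and 0.16 for Gclm (SE 0.09, adjusted p = 0.138, both edgeR). Exons of Gclm overlap those of Gm17494 on the opposite strand and of Gm6061 over 540 bases, and whether counting used the strand is not given in the sources used here. Gsr (chr8:33652523-33698163, plus strand), glutathione reductase, ran from 27.3 to 46.2 CPM (median 33.8) on the control diet and from 34.8 to 46.6 CPM (median 40.1) on the high-fat diet. All 12 high-fat diet libraries lay above its control median, yet its log2FC of 0.16 (SE 0.08) had an adjusted p of 0.136 (edgeR). Gss, the next enzyme of the pathway and no member of the 10, was called higher, with a log2FC of 0.62 (SE 0.11, adjusted p = 0.000133, edgeR).

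Txnrd1 and Srxn1 serve the thioredoxin and peroxiredoxin cycle. Srxn1 (chr2:152105516-152111376, plus strand), sulfiredoxin, restores peroxiredoxins that peroxide has overoxidized. It spanned 19.7 to 45.9 CPM (median 27.0) in control livers and 28.4 to 75.9 CPM (median 53.1) in high-fat livers. The groups overlapped at their ends, where control replicate 11 was the highest control and high-fat diet replicate 3 the lowest of its diet, and 8 high-fat diet libraries lay above every control. Srxn1 was called with a log2FC of 0.81 (SE 0.14, adjusted p = 6.25e-05, edgeR). Txnrd1 (chr10:82833951-82897712, plus strand), the cytosolic thioredoxin reductase, was the one member with a log2FC below 0, at -0.12 (SE 0.06, adjusted p = 0.118, edgeR). It had 94.9 to 125 CPM (median 107) on the control diet and 92.8 to 113 CPM (median 95.8) on the high-fat diet, with no high-fat diet library above the control maximum. With library totals in place of TMM its log2FC turned to 0.17 (adjusted p = 0.081, edgeR), while the median of all genes shifted up by 0.29.

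Since a ratio of 2 genes within a library does not depend on the scaling, 2 such ratios were compared. The log2 ratio of Txnrd1 to Gsr counts was 1.61 ± 0.18 in control and 1.32 ± 0.14 in high-fat livers (SD, n = 12 each), a difference of -0.29 (two-sided permutation test, p = 0.0003, adjusted over the 2 ratios 0.0006). Where Xist was above 1000 counts the difference was -0.39 (exact permutation p = 0.00216, the smallest that 6 against 6 allow), and where it was below, -0.18 (exact permutation p = 0.0584). So the counts of thioredoxin reductase were lower relative to those of glutathione reductase over all libraries, and whether the 2 sets differ in this was not tested. The log2 ratio of Gclm to Gclc, modifier to catalytic subunit, was -0.12 ± 0.25 on the control diet and -0.28 ± 0.41 on the high-fat diet (difference -0.16, permutation p = 0.278, adjusted 0.278). High-fat diet replicate 3 had the highest of these ratios, 0.77, and without it the difference was -0.25 (permutation p = 0.0279).

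**Figure D2:**
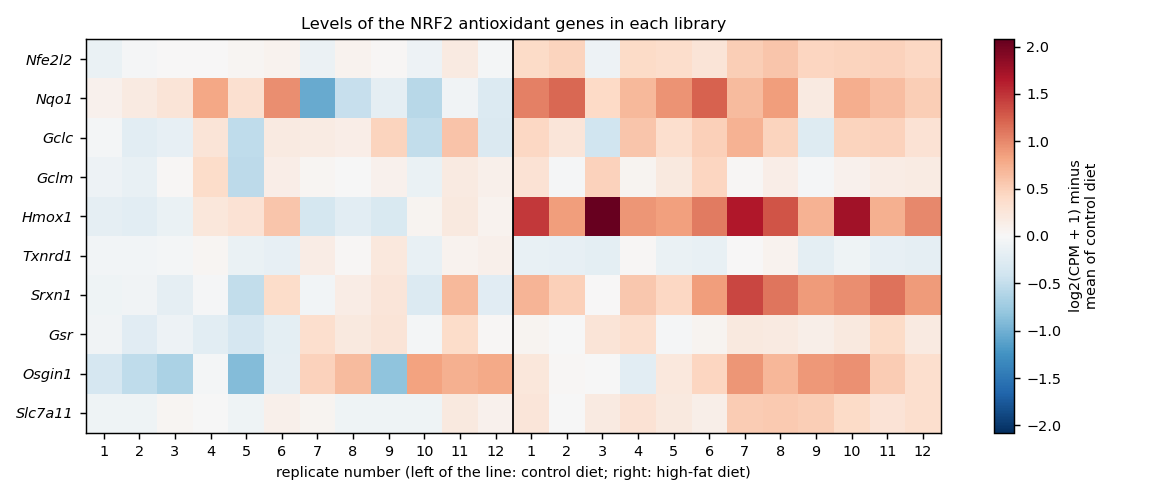
Each cell shows log2(CPM + 1) of a gene (rows) in a library (columns, by replicate number, control diet left of the line and high-fat diet right of it) less the mean of the control diet. In high-fat diet replicate 3 the row of Hmox1 is at its highest while Nfe2l2, Gclc and Srxn1 are at the lowest values of their diet, and Osgin1 and Nqo1 differ between replicates 1 to 6 and 7 to 12.

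The members did not follow each other in every library. High-fat diet replicate 3 had the highest Hmox1 and Gclm (190 CPM) of its diet and the lowest Nfe2l2, Gclc (112 CPM), Srxn1 (28.4 CPM) and Txnrd1 (92.8 CPM). The glutathione transferases Gsta1, Gsta2 and Gstm3, named further on, were also lowest of the diet in this library. Gsta1 stood there at 1.65 CPM against a median of 48.0 over the diet. Nfe2l2, Gclc, Srxn1, Gsta1 and Gstm3 of this library lay within the range of the control libraries. Hmox1 and Gclm lay above that range and Txnrd1 below it. What the neutrophil counts or the low monocyte-derived macrophage and stellate cell markers of this library contribute to these levels was not tested. Without this library 4 members were called higher and 0 lower (edgeR), and Slc7a11 (2.24), Hmox1 (1.18), Srxn1 (0.87) and Nqo1 (0.79) were the 4. On the control diet replicate 5 had the lowest Gclc, Gclm, Srxn1, Gsr and Osgin1 and replicate 11 the highest Nfe2l2, Gclc, Srxn1, Gsr and Slc7a11. Without high-fat diet replicate 9, and without control replicates 10 and 11, 4 members were again called higher and 0 lower (edgeR).

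Per kilobase of merged exon, which allows levels to be compared between genes, Gclc was the most abundant member on the control diet at 40.5 ± 10.1 CPM per kb (SD, n = 12). Osgin1 (35.5 ± 16.0) and Gclm (21.9 ± 3.29) followed. Nfe2l2 (15.3 ± 1.03), Txnrd1 (15.2 ± 1.34), Gsr (12.9 ± 2.32), Hmox1 (11.7 ± 2.57) and Srxn1 (10.3 ± 2.55) formed a middle range. Nqo1 was at 4.49 ± 2.05 and Slc7a11 at 0.00452 ± 0.00549 CPM per kb. The ranges over libraries of neighbours in this order overlapped, apart from Nqo1 and Slc7a11. On the high-fat diet Hmox1, at 28.3 ± 9.73 CPM per kb, stood after Gclc (50.4 ± 10.2) and Osgin1 (44.8 ± 12.1) and before Gclm (24.5 ± 2.99), with overlapping ranges. Exon lengths were those of GENCODE M21 and count all exons of a gene, so a level per kb is low for a gene whose main transcript uses few of them.

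Members also differed between the sets of libraries. With the diet in the fit, 4 of the 10 differed between the sets at an adjusted p of at most 0.05 (edgeR), as did 12.1% of all genes tested. Osgin1 was higher where Xist was below 1000 counts by 0.79 on the log2 scale (SE 0.14, adjusted p = 0.0004), Srxn1 by 0.37 (SE 0.12, adjusted p = 0.0413) and Gsr by 0.25 (SE 0.07, adjusted p = 0.014), all by edgeR. Nqo1 was lower there, with a log2 difference of -0.67 (SE 0.15, adjusted p = 0.00342, edgeR). On the control diet Nqo1 ranged from 6.93 to 13.5 CPM in the first set and from 2.59 to 6.06 CPM in the second. Gsr ranged there from 27.3 to 33.3 and from 34.3 to 46.2 CPM. Within the second set the lowest high-fat diet value of Nqo1 was 7.48 CPM. The share of all genes whose ranges separate 6 libraries from 6 was not counted, so these ranges are given as a description.

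Within the libraries with Xist above 1000 counts, 1 of the 10 members, Hmox1, was called higher, where 2.91% of all genes were. Its log2FC there was 1.20 (SE 0.21, adjusted p = 0.00244, edgeR). Within those below 1000 counts Hmox1, Srxn1, Nqo1 and Slc7a11 were called, 4 of the 10, where 14.3% of all genes were. Slc7a11 had few counts there too, and the high-fat diet libraries of this set alone carried it past the low-count filter. The log2FC of Nqo1 was 0.52 (SE 0.18, adjusted p = 0.0742) in the first set and 1.19 (SE 0.19, adjusted p = 0.000227) in the second, and that of Srxn1 was 0.62 (SE 0.15, adjusted p = 0.0143) and 0.99 (SE 0.16, adjusted p = 0.000251, all edgeR). Slc7a11 lay at 1.88 (SE 0.72, adjusted p = 0.0971) and 2.33 (SE 0.62, adjusted p = 0.0085, edgeR). A test of the difference itself, the interaction of diet and set, was past an adjusted p of 0.05 for 0 of the 10 members (edgeR), against 10.2% of all genes. Unadjusted, 2 of them had a p under 0.05, in opposite directions: below minus above, Nqo1 differed by 0.66 and Gsr by -0.32. The log2FC of Gsr was 0.34 (SE 0.09, adjusted p = 0.0176) in the first set and 0.03 (SE 0.09, adjusted p = 0.84, edgeR) in the second. That of Osgin1 was 0.56 (SE 0.14, adjusted p = 0.0176) and 0.22 (SE 0.22, adjusted p = 0.468, edgeR). No other tool was run for the interaction. The 2 sets are therefore not shown to differ in the diet response of these genes. On the high-fat diet the TMM factors also separated the sets, at 0.994 to 1.06 above and 1.12 to 1.34 below 1000 counts, and what this contributes was not tested.

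**Figure D3:**
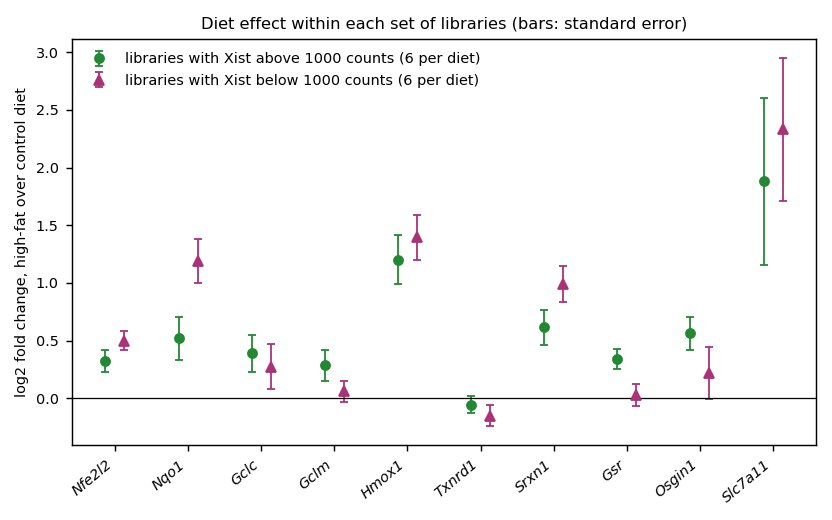
For each gene the log2FC of the high-fat over the control diet (y axis, with SEs) is shown within the libraries with Xist above 1000 counts (circles) and below (triangles), 6 per diet each. Nqo1 lies at 0.52 and 1.19 and Hmox1 at 1.20 and 1.40, and the interaction passed an adjusted p of 0.05 for none of the 10.

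The genes most like each member were sought among 13927 genes with a mean of at least 10 counts, by Pearson's r over the 24 libraries of log2(CPM + 1) less the mean of its diet and set. Slc7a11 was too low to be included. These are the highest of many correlations between libraries that share their scaling, and they are given as a description. Nfe2l2 was closest to Gsta1 (r = 0.88, Spearman's rho = 0.78), Abcc4 and Gm3776, and without high-fat diet replicate 3 the r with Gsta1 was 0.77. Gsta1 encodes a glutathione transferase, Abcc4 an exporter of conjugates. Hmox1 was closest to Fpr2 (r = 0.87, rho = 0.82), a formyl peptide receptor of phagocytes, Ifi30, a lysosomal thiol reductase of antigen-presenting cells, and Pkm, a pyruvate kinase. Gclc was closest to Entpd5 (r = 0.88, rho = 0.83), Aox1 and Lipa, and Srxn1 to Lgals3bp (r = 0.88, rho = 0.88), Myo9b and Dglucy. Nqo1 was closest to Hsd17b13 (r = 0.83, rho = 0.76), a lipid droplet enzyme, Cdkn1c and Cd81. Gsr was closest to Mcm2 (r = 0.78, rho = 0.77), Kif20b and Ccdc77, Gclm to Rad51b (r = 0.77, rho = 0.62), Irgm1 and Retsat, Txnrd1 to Ccdc186 (r = 0.86, rho = 0.75), Clcn4 and Eif2ak2, and Osgin1 to Krt18 (r = 0.74, rho = 0.80), Gm12247 and Emp3.

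Among the members themselves only Gclc and Srxn1 stood high in each other's order. Their r was 0.85 and their rho 0.85, and it was 0.82 without high-fat diet replicate 3. Among all candidates Srxn1 had rank 9 for Gclc, and Gclc had rank 4 for Srxn1. For the other members the rank of the closest member lay between 134 and 2589. Hmox1 was closest to Gclm among the members, with an r of 0.30, or 0.20 without high-fat diet replicate 3. The nearest member to Nfe2l2 was Nqo1, with an r of 0.64, or 0.58 without that library.

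Of 12 genes that set the activity of NRF2, 2 were higher and 0 lower, a share near the 13.2% and 4.99% of all genes called (edgeR, with 3 above and 2 below 0 at an unadjusted p under 0.05, and 2 higher and 0 lower also by DESeq2 and limma-voom). Without control replicates 10 and 11 there were 2 higher and 1 lower. The 2 called over all libraries were Maff (log2FC 0.81, SE 0.15, adjusted p = 0.00019, edgeR) and Mafk (0.64, SE 0.09, adjusted p = 5.66e-06), small MAF partners of NRF2, and every high-fat diet library exceeded every control in Mafk. Keap1, the repressor, had 57.4 ± 2.30 CPM in high-fat livers and 57.8 ± 4.45 in control livers (SD, n = 12 each), with a log2FC of -0.01 (SE 0.05). Bach1, which competes with NRF2 at the same elements and represses Hmox1, had 16.8 to 36.3 CPM in high-fat livers and 19.1 to 52.5 CPM in control livers. Its log2FC of -0.46 (SE 0.12, adjusted p = 0.00444, edgeR) stayed inside the fold threshold.

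**Figure D4:**
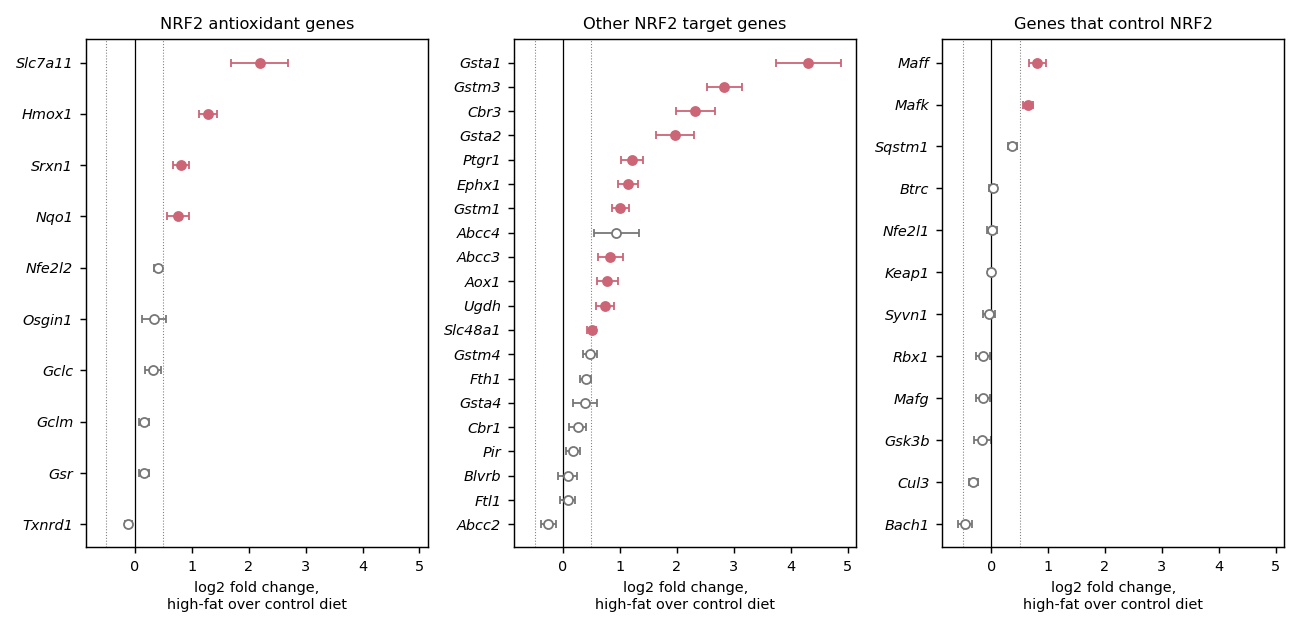
Points give log2FC values of the high-fat over the control diet with SEs for the 10 members, 20 other NRF2 target genes and 12 genes that control NRF2. Filled points were called (adjusted p at most 0.01 and beyond the dotted lines at 0.5 and -0.5), and they number 4, 11 and 2, all above 0.

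Of 20 further genes known as NRF2 targets, 11 were higher and 0 lower on the high-fat diet (edgeR, against 13.2% and 4.99% of all genes). None was below 0 at an unadjusted p under 0.05, DESeq2 and limma-voom gave the same counts, and the median log2FC was 0.76. The largest rises were those of Gsta1, Gstm3, Cbr3 and Gsta2, 3 glutathione transferases and a carbonyl reductase. Gsta1 went from a median of 1.24 CPM (0.336 to 10.6) on the control diet to 48.0 CPM (1.65 to 85.0), and every high-fat diet library but replicate 3 exceeded every control. Its log2FC was 4.31 (SE 0.57, adjusted p = 3.73e-06, edgeR). Gstm3 went from 28.2 CPM (18.8 to 57.5) to 267 CPM (53.6 to 409), with a log2FC of 2.84 (SE 0.31, adjusted p = 4.78e-07, edgeR). Cbr3 (2.33, SE 0.35) and Gsta2 (1.96, SE 0.33) were called as well. Gsta1 and Gsta2 are near-identical copies, as are several Gstm genes, so reads may have been split or lost between them, and how such reads were counted is not given in the sources used here. The log2FC values of all 4 genes lay above that of Hmox1, 1.28, the largest among the members apart from Slc7a11.

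Genes of neighbouring systems are read against the 13.2% of all genes called higher and the 4.99% called lower. The lists of glutathione use and of ATF4 genes held a larger share of higher genes, and those of thioredoxin, NADPH, AhR or CAR and heme genes a share near or under it. None of them held more than 1 lower gene. Of 13 genes of glutathione use and supply, 4 were higher and 1 lower, with Gpx3 (log2FC 1.64, SE 0.24) and Gpx7 (1.20, SE 0.26), 2 peroxidases, the furthest up among those averaging 10 counts or more, and Chac2, which degrades glutathione, down (fell by 0.58 on the log2 scale, SE 0.12). Of 16 thioredoxin, peroxiredoxin and dismutase genes, 1 was higher, the extracellular dismutase Sod3 (0.89, SE 0.16), and 1 lower, Prdx4 of the endoplasmic reticulum (fell by 0.60, SE 0.14), a call lost without control replicates 10 and 11 and with library totals. Of these 16 only 3 lay above 0, with a median of -0.16, and 2 lay above and 6 below 0 at an unadjusted p under 0.05. With library totals 12 lay above 0 and the median was 0.13, so the direction of this list turned with the scaling. None of 6 genes that supply NADPH was called by edgeR, DESeq2 or limma-voom, though by edgeR 3 lay above and 2 below 0 at an unadjusted p under 0.05, and 1 was called higher without control replicates 10 and 11 and 3 with library totals. The list for ATF4, the factor of a stress program that also drives Slc7a11, held its own gene and targets. Of these 10 genes, 3 were higher and 0 lower by edgeR (5 and 4 higher and none lower by DESeq2 and limma-voom). By edgeR 8 of the 10 lay above 0, and none lay below 0 at an unadjusted p under 0.05. The 3 higher by edgeR were Atf3 (2.50, SE 0.26), Psat1 (1.52, SE 0.26) and Trib3 (0.75, SE 0.18). Of 6 targets of AhR or CAR, receptors that share targets such as Nqo1 with NRF2, only Cyp1b1 (1.73, SE 0.27) was higher and none lower, with 1 below 0 at an unadjusted p under 0.05 and the same counts by DESeq2 and limma-voom. Of 7 genes of heme handling beside Hmox1, none was higher and 1, the hemoglobin scavenger receptor Cd163, was lower (fell by 2.51, SE 0.53), with the same counts by both other tools and 3 genes above 0 at an unadjusted p under 0.05. Without control replicates 10 and 11 there was 1 higher in this list, and with library totals there were 4.

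All 5 genes listed for the phagocyte NADPH oxidase, which makes superoxide in neutrophils and macrophages, were higher, where 13.2% of all genes were. Ncf4 had a log2FC of 1.59 (SE 0.27), Cybb 1.44 (SE 0.22), Rac2 1.43 (SE 0.21) and Cyba 1.38 (SE 0.23). The summed level of the 5 was 91.3 to 175 CPM in high-fat livers and 23.5 to 83.4 CPM in control livers, without overlap. Within the libraries with Xist above 1000 counts 1 of the 5 was called higher, where 2.91% of all genes were. Within those below 1000 counts all 5 were, where 14.3% of all genes were. The interaction of diet and set passed an adjusted p of 0.05 for 4 of the 5 (edgeR), against 10.2% of all genes.

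Markers of other cell types are also read against the 13.2% of all genes called higher and the 4.99% called lower. In lists this short 1 called gene is not set apart from these shares. All 6 markers of monocyte-derived macrophages were higher (summed level 123 to 947 CPM against 45.0 to 161 CPM on the control diet), among them Gpnmb (5.49, SE 0.55) and Trem2 (3.47, SE 0.35). Of 5 markers of resident macrophages 1, Cd5l, was higher (170 to 779 against 109 to 468 CPM). While 4 of the 5 lay above 0, only 1 had an edgeR p under 0.05 unadjusted. The 3 tested of 4 neutrophil markers were higher by edgeR and 1 by limma-voom (6.02 to 157 against 1.67 to 6.78 CPM), and the log2FC of S100a8 went from 4.28 to 1.55 without high-fat diet replicate 3. Of 6 markers of stellate cells and myofibroblasts 4 were higher (152 to 564 against 40.1 to 203 CPM), 3 of them without high-fat diet replicate 9. Of 4 markers of cholangiocytes 3 were higher (5.28 to 151 against 4.78 to 14.0 CPM). The 151 CPM was that of replicate 9, the next highest library of the diet had 35.0 CPM, and without replicate 9 there were again 3. Within the libraries with Xist above 1000 counts 0 cholangiocyte markers were called higher, where 2.91% of all genes were. Within those below 3 were, where 14.3% of all genes were. Stab2, 1 of 4 markers of sinusoidal endothelium, was called higher (86.0 to 251 against 81.3 to 192 CPM), a call lost without high-fat diet replicate 3, and also without control replicates 10 and 11. This list was mixed, with 2 markers above and 1 below 0 at an unadjusted edgeR p under 0.05. Of 6 hepatocyte markers 5 were lower (34044 to 86265 against 74951 to 123547 CPM), with Cps1 falling by 0.99 and Alb by 0.72 on the log2 scale. By limma-voom, without high-fat diet replicate 9, and without control replicates 10 and 11 there were 4, and with library totals 1. Over all 24 libraries no T or B cell marker was called by edgeR, DESeq2 or limma-voom (1.39 to 4.12 against 0.396 to 6.41 CPM, and 1.90 to 8.50 against 1.44 to 7.82 CPM), and 1 T cell and 0 B cell markers had an edgeR p under 0.05 unadjusted. Within the libraries with Xist below 1000 counts, where 14.3% of all genes were called higher, 2 of 3 T cell markers and 1 of 3 B cell markers were, against 0 and 0 in those above. The interaction of diet and set passed an adjusted p of 0.05 for 3 T cell markers and 1 B cell marker (edgeR). No marker was at 0 in every library of a diet. The part of these cells in the levels of the 10 members was not tested.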

How the data were processed

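Whole-liver RNA of mice on a high-fat or a control diet was sequenced in 24 poly(A) libraries, 12 per diet, grouped by the diet in their labels. The authors deposited raw counts per Ensembl gene in 1 table, with no normalization applied. The submitters' processing notes name bcl2fastq, STAR 2.7.3a and mm10, and the study's methods describe the exon quantification pipeline and PISCES only for reads aligned to the human reference, so the counting program and annotation of the mouse table are not given in the sources used here. Symbols came from GENCODE M21 (GRCm38) for 51745 of 56205 gene IDs, and the other 4460 held 0.0723% of the counts. Every column of values was used.

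From the deposited counts, edgeR 4.0.16 in R 4.3.3 was fitted to the 17913 genes that had a count in 12 or more libraries (TMM scaling, quasi-likelihood test of the diet without covariates, Benjamini-Hochberg). A gene was called when its log2 fold change (log2FC) was beyond 0.5 in size with an adjusted p no larger than 0.01. These thresholds are those of the RNA-Seq analyses in the study's methods. For its human livers the study fitted DESeq2 with sex as a covariate, whereas the main fit here had no term for sex or set. Standard errors (SE) are the size of log2FC over the root of its F statistic, and the fit was tested on simulated counts. Ratios were compared by two-sided permutation of the libraries (100000 resamples, exact for 6 against 6), with 0.5 counts added as an alternative. The interaction of diet and set was tested at an adjusted p of at most 0.05.

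The 10 genes, the other lists, the split by Xist and the alternatives were chosen with earlier results of these data known. The alternatives were DESeq2 1.42.0, limma-voom (limma 3.58.1), scaling by library totals or by the size factors of DESeq2, 2 other thresholds, 3 other low-count filters, the set or the replicate number as a term, each set alone and each library left out. Leaving out control replicates 10 and 11 was added after seeing the data. The genes named were all 10 members and, from each other list, up to 4 called genes in each direction with the largest change and a mean of at least 10 counts. Keap1, Bach1, Slc3a2, Gss, Xist and the 3 genes nearest to each member by r were named whatever their change.

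Depth was 14468418 to 22112552 counts per library. On average 3 counts equal 0.162 CPM in high-fat and 0.154 CPM in control livers, so values near these carry a large counting error. No 2 libraries of a diet were alike within sampling noise, with a chi-square per degree of freedom of at least 9.48 between them. A gene that belongs with these lists is not reported here.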

Additional observations from a re-analysis of the deposited data

Results flagged for a closer look

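For 12 of the genes named from the neighbouring lists the diet effect differed between the libraries with Xist below and above 1000 counts, in the test of the interaction itself (edgeR's quasi-likelihood test, adjusted p at most 0.05), as for 10.2% of all genes. None of the 10 members was among them. Values are the log2 fold change below minus that above 1000 counts. Of the other NRF2 targets, Gstm3 differed by 1.84 (standard error 0.42), with log2 fold changes of 3.62 below and 1.77 above. Cbr3 differed by 2.04 (standard error 0.44), with 3.12 and 1.07. Of the phagocyte oxidase, Ncf4 differed by 1.75, Cybb by 1.63 and Rac2 by 1.44. Of the macrophage markers, Cd5l differed by 1.42, Trem2 by 1.75, Itgax by 1.36 and Spp1 by 2.04. The neutrophil marker Csf3r differed by 1.33 and the cholangiocyte marker Epcam by 3.06. Slc3a2, the partner of Slc7a11, differed by 0.51 (standard error 0.13), with 0.43 below and -0.09 above. All 12 had the larger diet effect where Xist was below 1000 counts. By Xist and by number the sets divide the libraries as 6 females and 6 males per diet would. The labels name no sex, litter or date for a library, so sex and anything else the libraries of a set share cannot be told apart here.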

How the results depend on the processing

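With DESeq2, limma-voom, DESeq2's size factors, no filter, the set as a term, and control replicates 10 and 11 left out, 4 members were called higher and 0 lower. With filterByExpr or at least 10 counts in every library there were 3, since Slc7a11 was then not tested. A log2 fold change over 1 left 2 members higher, 1 list gene lower and 216 genes lower in all. Library totals gave 6 members higher, turned Txnrd1 to 0.17, and gave 65 list genes higher and 2 lower (45 and 8 with TMM) and 3827 genes higher and 226 lower (2372 and 894 with TMM). An adjusted p of at most 0.05 with no fold threshold gave 19 list genes lower, and 3709 genes higher and 3388 lower. Requiring at least 10 counts in every library gave 1226 genes higher, with fewer genes tested. The libraries with Xist above 1000 counts alone gave 1 member higher, 22 list genes higher and 2 lower, and 525 genes higher and 162 lower. Those below gave 13 list genes lower, 1430 genes lower, and a Txnrd1 to Gsr difference of -0.18.

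With each library left out in turn, 4 members were called higher and 0 lower each time, list genes 43 to 49 higher and 7 to 9 lower, and all genes 2188 to 2468 higher and 700 to 995 lower. The difference in the Txnrd1 to Gsr ratio ranged from -0.32 to -0.26 and that in the Gclm to Gclc ratio from -0.25 to -0.11, the former end without high-fat diet replicate 3. Where the number of samples was not the difference, the cause was not tested. The replicate numbers are shared between diets but name no shared animal. Deviations of same-numbered libraries correlated at 0.15 to 0.54 for 11 of 12 numbers and at -0.09 for number 9. Pairs were taken only where every correlation was over 0.1, so they were not taken here. Same-numbered libraries also lie in the same Xist set. With the replicate block 4 members were higher and 0 lower, 43 list genes were higher and 7 lower, and 2063 genes were higher and 844 lower. Depth limits Slc7a11 above all, at 1 to 12 counts in the high-fat diet libraries and 0 to 4 in the control libraries.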
